A study of Mus musculus with 40 samples.

Results

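The genes described here are 5 markers of CA2 pyramidal neurons, Amigo2, Rgs14, Necab2, Pcp4 and Map3k15, taken by symbol from a table of 40853 genes counted in the hippocampus of 40 mice. They were chosen by their standing as CA2 markers and by part of their measured values, namely that Amigo2 and Rgs14 were lower after deletion of H2A.Z than in controls, so every difference of these genes from control or from deletion mice of the same sex is a description and carries no test. Each mouse gave 1 RNA library, and the totals ran from 24342921 to 45982772 counted fragments.

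All mice were floxed for both genes of H2A.Z by the study's account, although the labels give the genotype of the controls as wild type, and all received AAV by stereotaxic injection into the hippocampus. Myc controls (3 females, 4 males) received a virus for the 3xMyc tag, mixed with PBS and without Cre. H2A.Z-KO mice (4 females, 4 males), labelled KD in part of the records, received the Myc virus and a second virus with Cre driven by the synapsin promoter, which is active in neurons. Cre deletes both forms of the histone variant in transduced neurons, and cells without Cre keep them. H2A.Z.1-WT mice (4 females, 5 males), H2A.Z.1-KA mice (4 females, 4 males) and H2A.Z.1-KQ mice (3 females, 5 males) received the same Cre with a replacement: Myc-tagged H2A.Z.1 that was wild type, had N-terminal lysines changed to alanine, which cannot be acetylated, or had them changed to glutamine, which resembles acetylated lysine. The replacement was driven by a promoter that is not limited to neurons. Every Cre group thus differs from Myc in Cre and a second virus as well as in H2A.Z. These cannot be told apart in any comparison with Myc. The age of the mice is not given in the sources used here.

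CA2 is the short stretch of pyramidal neurons between CA3 and CA1. Its neurons receive input from the entorhinal cortex, the supramammillary nucleus and the CA3 Schaffer collaterals, and are known for their role in social memory, for the resistance of their Schaffer collateral synapses to long-term potentiation, and for a dense coat of perineuronal net. Because CA2 is a small share of the hippocampus, its marker genes are diluted in RNA of the whole tissue. H2A.Z is a variant of histone H2A that lies in nucleosomes around transcription start sites and enhancers.

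Amigo2 encodes a leucine-rich-repeat adhesion protein of the neuronal surface and lies on chromosome 15 of GRCm39 from 97142006 to 97145196, on the minus strand. Rgs14, a scaffold that joins G protein, Ras and MAP kinase signalling and restrains plasticity in CA2, lies on chromosome 13 from 55517258 to 55535857. Necab2, a neuronal calcium-binding protein of the EF-hand family, lies on chromosome 8 from 120173399 to 120199379, and Pcp4, a small regulator of calmodulin, lies on chromosome 16 from 96268806 to 96326997. Map3k15, a kinase of the apoptosis signal-regulating family, lies on chromosome X from 158771429 to 158906347. The latter 4 are on the plus strand, and all coordinates are those of the GENCODE annotation.

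The counts cover all exons of a gene, and 3 of the genes share exon sequence with another gene. In Amigo2, 197 of 3191 exon bases overlap Pced1b on the opposite strand. In Pcp4, 243 of 1121 overlap the predicted gene Gm49948 on the same strand. In Map3k15, 716 of 4348 exon bases overlap Pdha1, a subunit of pyruvate dehydrogenase on the opposite strand. Whether counting used the strand is not stated, and strand could not separate Pcp4 from Gm49948. Reads from these stretches therefore cannot be assigned with certainty. Pdha1 was at 180.2 ± 18.3 CPM in Myc females and 175.1 ± 2.28 CPM in Myc males, and Pced1b was at 7.36 ± 1.48 and 7.81 ± 0.357 CPM. CPM is the count of a gene per 1000000 counts of the library, scaled between libraries by the TMM method, and every ± is an SD over mice. No exon of Rgs14 or Necab2 overlaps another gene.

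The 250 bases before the start site are shown for the 3 genes that RefSeq's promoter table holds, to set Amigo2 and Necab2, which were lower in every Cre mouse than in the controls of its sex, beside Pcp4, which was not. Rgs14 and Map3k15 have no entry. The sequences run 5′ to 3′ along the gene's own strand in build GRCm38.p6, which is older than the build of the counts, and capitals mark CpG dinucleotides.
Amigo2 (chr15:97247288-97247537, minus strand): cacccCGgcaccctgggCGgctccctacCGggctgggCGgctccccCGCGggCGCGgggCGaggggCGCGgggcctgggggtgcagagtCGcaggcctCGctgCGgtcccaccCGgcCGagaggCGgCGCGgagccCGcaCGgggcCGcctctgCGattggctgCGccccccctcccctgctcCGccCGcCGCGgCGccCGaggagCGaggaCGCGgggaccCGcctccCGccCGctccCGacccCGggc
Necab2 (chr8:119446469-119446718, plus strand): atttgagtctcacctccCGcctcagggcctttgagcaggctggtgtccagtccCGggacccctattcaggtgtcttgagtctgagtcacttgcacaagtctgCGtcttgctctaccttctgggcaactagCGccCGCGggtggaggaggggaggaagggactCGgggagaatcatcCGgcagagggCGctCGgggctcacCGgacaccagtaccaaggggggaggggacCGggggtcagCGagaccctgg
Pcp4 (chr16:96467356-96467605, plus strand): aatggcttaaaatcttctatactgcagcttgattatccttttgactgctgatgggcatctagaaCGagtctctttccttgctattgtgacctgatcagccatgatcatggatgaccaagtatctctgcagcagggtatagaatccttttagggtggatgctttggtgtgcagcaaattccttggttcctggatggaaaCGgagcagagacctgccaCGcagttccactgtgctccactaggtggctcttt

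The Amigo2 stretch holds 38 CpG and is 84.0% G or C, and 98.1% of the 32851 promoters of the table hold fewer CpG. The Necab2 stretch holds 13, more than 68.5% of promoters, and the Pcp4 stretch holds 3, more than 29.0%. The median promoter holds 6. With sequences for only 3 of the genes, no link between CpG count and the change in level can be drawn. The core of the response element of glucocorticoid and mineralocorticoid receptors, ACANNNTGT on either strand, was searched because CA2 neurons are rich in mineralocorticoid receptor. It is in 5.84% of all promoter stretches of this length and in none of these 3, which says only that these letters are not in this window.

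Per length, Pcp4 was the most abundant of the 5 in the controls. Its level was 76.6 CPM per kb of exon in Myc females and 90.5 in Myc males, against 20.6 and 17.4 for Necab2, 11.4 and 12.5 for Rgs14, 8.09 and 8.12 for Amigo2, and 0.529 and 0.672 for Map3k15. Each gene had a count in every mouse, the lowest being 26 fragments for Map3k15, and all 5 passed the filter on low counts.

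Amigo2 separated the controls from all mice with Cre. In Myc females the level was 24.8, 28.0 and 24.7 CPM, and in Myc males 23.7, 33.4, 19.0 and 27.5 CPM. H2A.Z-KO females stood at 8.21, 16.6, 10.4 and 13.2 CPM and H2A.Z-KO males at 8.08, 10.0, 10.9 and 12.5 CPM. All 15 Cre females and all 18 Cre males were below the lowest Myc mouse of their sex. How many of all genes separate in this way was not counted. Such counts, here and for the genes below, therefore do not show that these genes are unusual. The highest Cre mouse was an H2A.Z-KO female at 16.6 CPM, and the lowest Myc mouse was a male at 19.0 CPM.

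Replacement with H2A.Z.1 did not bring Amigo2 near the control level. H2A.Z.1-WT females were at 6.71, 10.2, 8.17 and 9.18 CPM and H2A.Z.1-WT males at 6.58, 8.73, 10.0, 9.62 and 9.65 CPM. H2A.Z.1-KA females were at 8.90, 6.67, 8.12 and 13.3 CPM, and the males at 6.35, 8.46, 7.32 and 11.0 CPM. H2A.Z.1-KQ females were at 5.78, 9.99 and 9.57 CPM, and the males at 8.58, 9.42, 8.37, 10.1 and 11.5 CPM. No replacement mouse exceeded the highest H2A.Z-KO mouse of its sex, and 5 of 11 females and 3 of 14 males were below the lowest one.

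On the fitted log2 scale, where -1 is a halving, Amigo2 in H2A.Z-KO mice differed from Myc by -1.09 (SE 0.22) in females and -1.32 (SE 0.21) in males. The replacement groups differed from Myc by -1.59 (SE 0.23, WT), -1.48 (SE 0.23, KA) and -1.61 (SE 0.25, KQ) in females, and by -1.54 (SE 0.20), -1.64 (SE 0.21) and -1.43 (SE 0.20) in males. Their differences from H2A.Z-KO mice ran from -0.52 (SE 0.23) in KQ females to -0.11 (SE 0.20) in KQ males. In the order of the 10 groups, the one gap between neighbours whose mice did not overlap was that between Myc females, at 25.8 ± 1.88 CPM, and H2A.Z-KO females, at 12.1 ± 3.62 CPM.

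**Figure D1:**
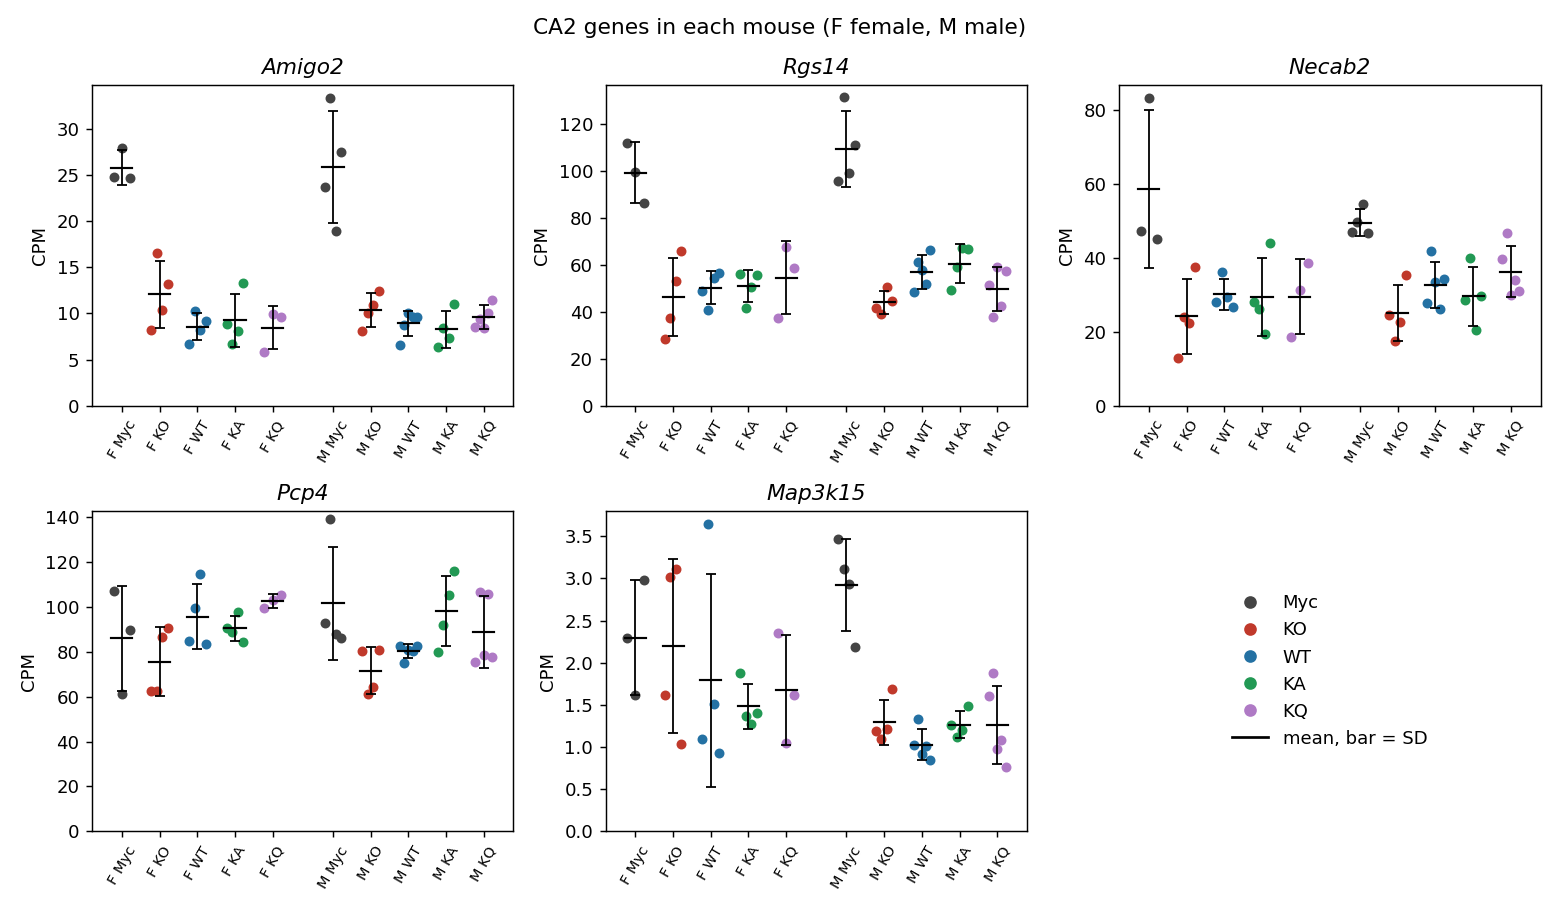
Level of Amigo2, Rgs14, Necab2, Pcp4 and Map3k15 in CPM (vertical axes, from 0) in each of the 40 mice, by sex and AAV group. Points are mice, horizontal lines are means and bars are SD over mice. For Amigo2 and Rgs14 all Cre mice lie below all Myc mice, and for Necab2 this holds within each sex. For Pcp4 the Cre and Myc mice of each sex overlap.

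Rgs14 behaved like Amigo2 against the controls. Myc females were at 112.1, 99.7 and 86.2 CPM and Myc males at 95.6, 131.6, 99.3 and 111.0 CPM. H2A.Z-KO females were at 28.3, 37.5, 53.2 and 66.1 CPM, and H2A.Z-KO males at 41.8, 39.2, 50.6 and 44.5 CPM. The 4 H2A.Z-KO females spread more widely than the males, and the highest of them was still under the lowest Myc female.

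With replacement, Rgs14 stayed below the controls in each mouse. H2A.Z.1-WT mice were at 40.9 to 56.6 CPM in females and 48.3 to 66.2 CPM in males, H2A.Z.1-KA mice at 41.6 to 56.3 and 49.1 to 67.3 CPM, and H2A.Z.1-KQ mice at 37.3 to 67.7 and 37.9 to 59.2 CPM. Thus 15 of 15 Cre females and 18 of 18 Cre males lay under the lowest Myc mouse of their sex. For Rgs14, 10 of 14 replacement males and 1 of 11 replacement females exceeded the highest H2A.Z-KO mouse of their sex, which no replacement mouse did for Amigo2.

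The fitted difference of Rgs14 from Myc was -1.10 (SE 0.20) in H2A.Z-KO females and -1.31 (SE 0.19) in H2A.Z-KO males. In the replacement groups it was -0.98 (SE 0.20, WT), -0.96 (SE 0.20, KA) and -0.86 (SE 0.22, KQ) in females and -0.94 (SE 0.18), -0.85 (SE 0.19) and -1.14 (SE 0.18) in males. Again the only neighbours in the order of the 10 group means that did not overlap were a Myc group, the females at 99.3 ± 12.9 CPM, and the highest Cre group, the H2A.Z.1-KA males at 60.6 ± 8.47 CPM.

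Necab2 was also below the controls in all Cre mice, by a narrower margin. Myc females were at 47.4, 83.4 and 45.2 CPM and Myc males at 47.0, 49.8, 54.6 and 46.8 CPM. H2A.Z-KO females were at 12.9, 23.9, 22.5 and 37.6 CPM and H2A.Z-KO males at 24.5, 17.6, 22.7 and 35.5 CPM. The highest Cre female, at 44.16 CPM, was just under the lowest Myc female at 45.22 CPM, and the highest Cre male and lowest Myc male, at 46.75 and 46.76 CPM, were nearly equal.

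The Necab2 difference from Myc was -1.27 (SE 0.29) in H2A.Z-KO females and -0.99 (SE 0.28) in H2A.Z-KO males. Under replacement it was -0.96 to -0.99 in females (SE 0.29 to 0.32), and in males -0.60 (SE 0.26, WT), -0.74 (SE 0.27, KA) and -0.45 (SE 0.26, KQ). The 1 Myc female at 83.4 CPM, mouse 31, weighs on the female values: without it the difference in H2A.Z-KO females was -0.93. That mouse also had the highest CA1 sum of the 3 Myc females (1104 CPM over the CA1 marker list, against 632 and 628) and the lowest dentate gyrus sum (443 CPM against 1012 and 766), and the part of this in its Necab2 level was not tested.

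Pcp4 overlapped between the controls and the Cre mice of each sex. Myc females were at 107.0, 60.9 and 89.8 CPM and Myc males at 92.8, 138.8, 87.9 and 86.2 CPM. H2A.Z-KO females were at 62.5, 62.5, 86.7 and 90.7 CPM, within the Myc range, and H2A.Z-KO males at 80.3, 61.2, 64.1 and 80.6 CPM, all under the lowest Myc male. The fitted difference of Pcp4 was -0.19 (SE 0.17) in females and -0.50 (SE 0.16) in males. Without the Myc male at 138.8 CPM, mouse 22, it was -0.31 in males, and without the Myc female at 107.0 CPM, mouse 11, it was 0.0039 in females. With each mouse left out in turn, it ran from -0.38 to 0.0039 in females and from -0.57 to -0.31 in males. No Cre female and 13 of 18 Cre males were below the lowest Myc mouse of their sex.

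Pcp4 was close to Myc in replacement females but not in all groups of replacement males. Every WT male, at 74.9 to 82.6 CPM, was below the lowest Myc male at 86.2 CPM, while KA and KQ males overlapped Myc males. The difference from Myc was 0.15 (SE 0.17, WT), 0.07 (SE 0.17, KA) and 0.25 (SE 0.18, KQ) in females, and -0.34 (SE 0.15), -0.05 (SE 0.16) and -0.19 (SE 0.15) in males. Without mouse 22 it was -0.15, 0.14 and -0.0039 in males. The 14 replacement males ran from 74.9 to 115.7 CPM with a median of 81.7 CPM, and 8 of them exceeded the highest H2A.Z-KO male. The 11 replacement females ran from 83.5 to 114.5 CPM with a median of 97.6 CPM, and 6 of them exceeded the highest H2A.Z-KO female.

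Map3k15 was scarce. Myc females were at 2.30, 1.62 and 2.98 CPM and Myc males at 3.47, 3.11, 2.93 and 2.18 CPM. H2A.Z-KO females were at 1.62, 3.01, 3.12 and 1.04 CPM, overlapping the controls, whereas H2A.Z-KO males were at 1.19, 1.09, 1.22 and 1.69 CPM. All 18 Cre males but 10 of 15 Cre females were below the lowest Myc mouse of their sex. The fitted difference from Myc was -0.06 (SE 0.36) in H2A.Z-KO females and -1.18 (SE 0.34) in H2A.Z-KO males. In replacement males it was -1.50 (SE 0.32, WT), -1.20 (SE 0.33, KA) and -1.21 (SE 0.31, KQ), and in replacement females -0.35 (SE 0.36), -0.63 (SE 0.36) and -0.46 (SE 0.38).

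The 4 Cre females with the most Map3k15 were the 4 mice with over 1000 CPM of Ttr, the transthyretin of the choroid plexus. H2A.Z-KO females 14 and 33 had 3655 and 2654 CPM of Ttr with 3.01 and 3.12 CPM of Map3k15, H2A.Z.1-WT female 20 had 4104 with 3.65, and H2A.Z.1-KQ female 17 had 2418 with 2.35. The other 11 Cre females, with at most 907 CPM of Ttr, ran from 0.925 to 1.88 CPM of Map3k15, and 10 of them were below the lowest Myc female at 1.62 CPM. The limit of 1000 CPM was chosen after the values were seen, and since these mice are also the highest in Map3k15, leaving them out can only lower the level. Without the 4 mice the Map3k15 difference from Myc in H2A.Z-KO females was -0.79, in place of -0.06, and it was -0.95 and -0.80 in WT and KQ females, in place of -0.35 and -0.46. The summed level of 8 choroid plexus markers was 25.2 to 46.6 CPM in Myc females and 61.0 to 3941 CPM in H2A.Z-KO females. Of the 8, 7 were higher in H2A.Z-KO females (edgeR, adjusted p under 0.05), as were 18.1% of all genes.

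**Figure D2:**
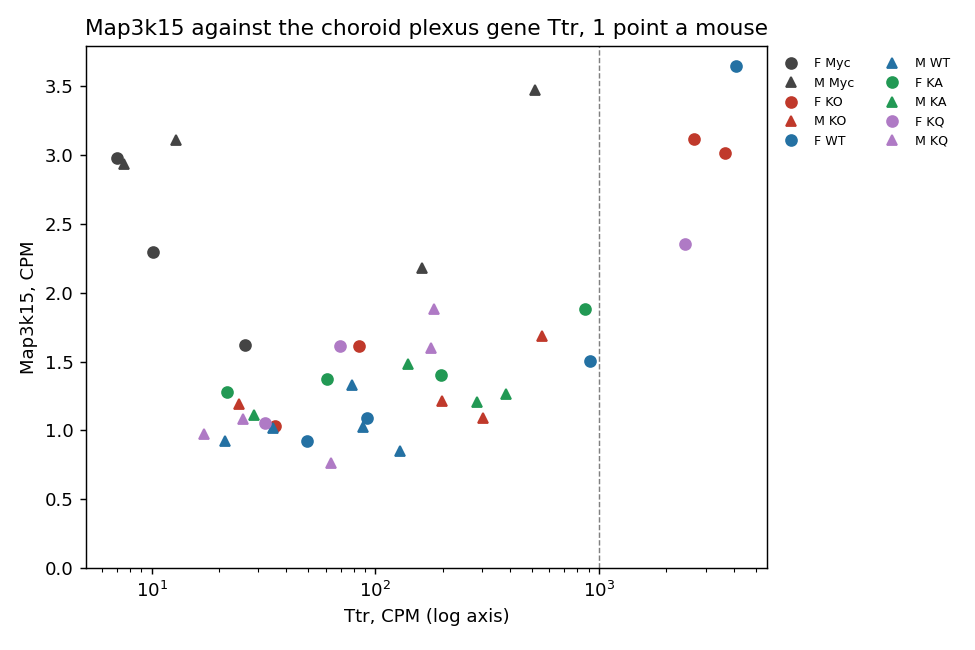
Map3k15 (vertical axis, CPM) against the choroid plexus gene Ttr (horizontal axis, CPM on a log scale), 1 point a mouse, circles for females and triangles for males, coloured by AAV group. The 4 points to the right of the dashed line at 1000 CPM of Ttr are Cre females at 2.35 to 3.65 CPM of Map3k15, while all other Cre mice are at 1.88 CPM or less.

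**Figure D3:**
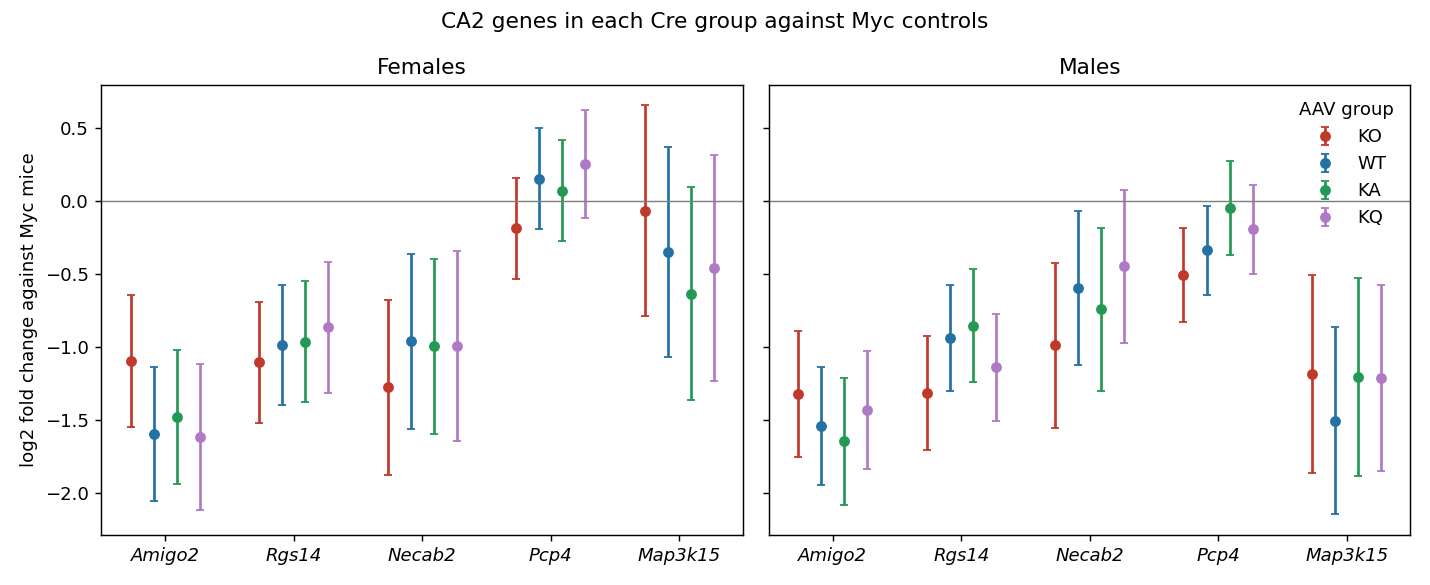
Fitted log2 fold change of the 5 CA2 genes (vertical axis) in each Cre group against the Myc mice of the same sex, as a description. Points are estimates and bars 95% confidence intervals. Amigo2 and Rgs14 were chosen for lower values after deletion, so the bars are no test against Myc. Amigo2 lies at -1.09 to -1.64 in all 8 comparisons, and Pcp4 between -0.50 and 0.25.

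These levels are shares of all RNA in the tissue, and fewer CA2 neurons and less of this RNA in each neuron cannot be told apart in them. The RNA of 12 pan-neuronal genes made a smaller share in Cre mice by group median. Their summed level had a median of 10865 CPM in Myc females and 10753 CPM in Myc males. It was 6828 and 7741 CPM in H2A.Z-KO mice, and 8292 to 9718 CPM in the replacement groups. For these genes too, fewer neurons and less of this RNA in each neuron cannot be told apart, which limits their use as a scale. In H2A.Z-KO mice, 11 of the 12 fell in females and 7 in males, where over all genes 16.5% fell and 18.1% rose in females and 14.4% fell and 17.2% rose in males. Among them were Snap25 (log2 fold change -0.94 and -0.71) and Syt1 (-0.98 and -0.59), both of synaptic vesicle release. In the same comparisons all 10 microglial genes rose in both sexes, as did all 10 T cell genes.

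Set against those 12 genes, Amigo2 had 2.34 ± 0.0671 CPM for each 1000 pan-neuronal CPM in Myc females and 2.38 ± 0.460 in Myc males. H2A.Z-KO females had 1.91 ± 0.748, with 1 mouse at 2.99 above the Myc range, and H2A.Z-KO males 1.41 ± 0.313. The replacement groups had the least, from 0.916 ± 0.175 in H2A.Z.1-KA males to 1.08 ± 0.241 in H2A.Z.1-KA females. On this scale the replacement means were further from the controls than the H2A.Z-KO means.

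Rgs14 per 1000 pan-neuronal CPM was 9.01 ± 1.36 and 10.1 ± 1.06 in Myc females and males, 6.88 ± 0.895 and 5.99 ± 0.976 in H2A.Z-KO mice and 5.02 to 6.73 in the replacement groups. Necab2 was 5.26 ± 1.65 and 4.59 ± 0.466 in Myc, 3.62 ± 0.995 and 3.31 ± 0.444 in H2A.Z-KO, and 3.29 to 3.71 with replacement. Pcp4 went the other way in females, with 7.85 ± 2.44 in Myc and 11.6 ± 1.18 in H2A.Z-KO mice, and was at 9.34 ± 1.95 and 9.70 ± 1.45 in males. When the fit itself was scaled to these genes, which put the median of all genes against Myc at 0.81 in H2A.Z-KO females and 0.59 in H2A.Z-KO males, where TMM scaling put it at 0.003 and 0.03, the difference from Myc was -0.29 and -0.75 for Amigo2, -0.39 and -0.75 for Rgs14, -0.54 and -0.47 for Necab2, 0.56 and 0.05 for Pcp4, and 0.74 and -0.64 for Map3k15.

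The mice are numbered up to 46, and the ranges 1 to 20, 21 to 40 and 41 to 46 each hold several groups. Within each range that has both groups, Amigo2 in H2A.Z-KO mice differed from Myc by -1.08 to -1.39 on the log2 CPM scale. Rgs14 in females differed by -1.78 in the first range and -0.64 in the second, and in males by -1.17 to -1.32. Necab2 ran from -0.40 to -1.43, Pcp4 from -0.78 to 0.26, and Map3k15 from -0.05 to -0.28 in females and -0.36 to -1.56 in males. Several ranges hold 1 mouse of a group, and whether a range was a batch is not stated.

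The comparisons between the 3 forms of H2A.Z.1 use no control or deletion mouse and could be tested. None of the 30 tests, of 5 genes in 6 comparisons, passed at an adjusted p under 0.05 (edgeR quasi-likelihood, Benjamini-Hochberg over 28449 genes), and the smallest adjusted p was 0.58. None had an unadjusted p under 0.05, and DESeq2 called none. The background is as empty: over all genes edgeR called 0% in each of H2A.Z.1-KA against KQ, KA against WT and KQ against WT, in females (0%, 0% and 0%) and in males (0%, 0% and 0%). Between 595 and 2993 genes had an unadjusted p under 0.05 in them, and DESeq2 called 4 to 20.

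The intervals show what size of difference these tests leave possible. The estimates for the 5 genes ran from -0.29 to 0.30 on the log2 scale and their 95% intervals from -0.96 to 0.95. For KA against KQ, the contrast of the acetyl-defective and the acetyl-mimic form, Amigo2 differed by 0.13 (interval -0.33 to 0.60) in females and -0.21 (-0.62 to 0.19) in males. Rgs14 differed by -0.10 (-0.51 to 0.32) and 0.29 (-0.08 to 0.65), and Pcp4 by -0.18 (-0.53 to 0.16) and 0.15 (-0.16 to 0.45). Necab2 differed by -0.0017 (-0.61 to 0.60) and -0.29 (-0.83 to 0.24). Map3k15 differed by -0.18 (-0.90 to 0.55) and 0.0066 (-0.65 to 0.66). In simulated counts for KA against KQ in females, 75% of 100 genes changed by 1 on the log2 scale were recovered among 28449 genes. Of 100 changed by 0.5, 32% were recovered. Both sets were planted together, in genes with a mean of at least 1 CPM, which eases the adjusted threshold. The recovery of a gene that changes alone was not simulated. The KA-KQ, KA-WT and KQ-WT differences were also compared between the sexes, and for the 5 genes none of these 3 interactions passed (edgeR, smallest adjusted p 0.84, with no unadjusted p under 0.05).

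**Figure D4:**
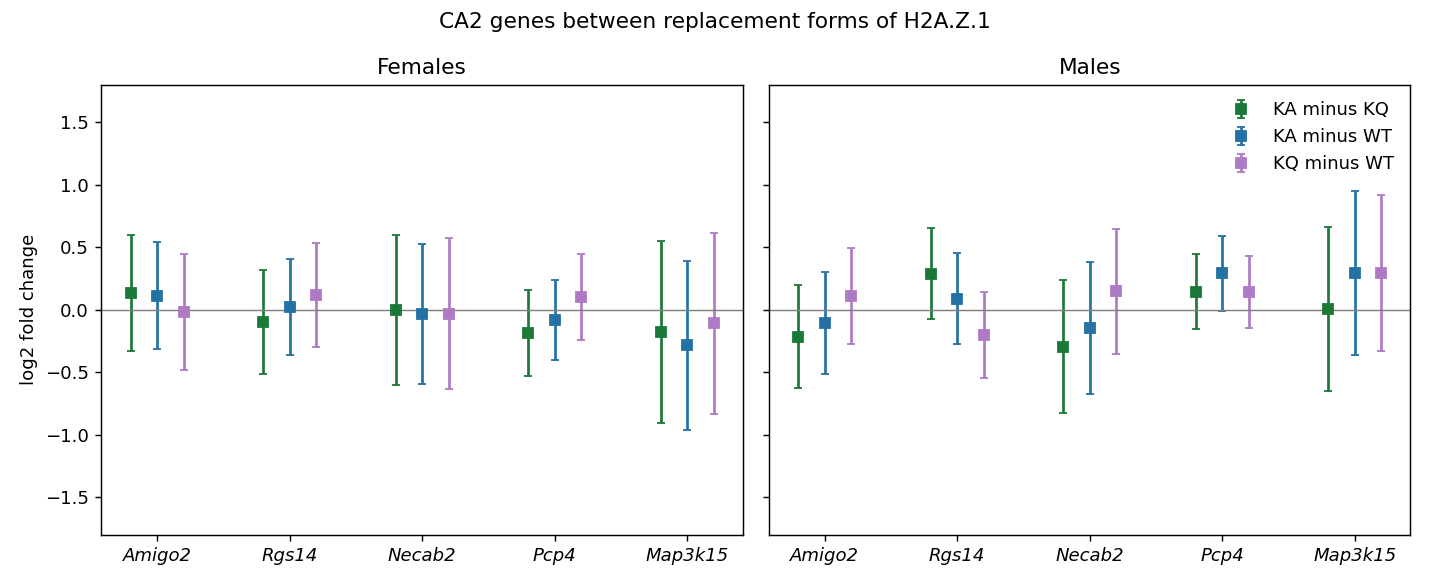
Fitted log2 fold change of the 5 CA2 genes (vertical axis) between the replacement forms of H2A.Z.1, females left and males right. Squares are estimates and bars 95% confidence intervals, and all 30 intervals include 0.

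Females and males were compared within each AAV group. None of the 25 tests passed (edgeR; smallest adjusted p 0.58), 2 had an unadjusted p under 0.05, and DESeq2 called none. Over all genes edgeR called 0.0457% in Myc, 0.0316% in H2A.Z-KO, 0.0316% in H2A.Z.1-WT, 0.0316% in H2A.Z.1-KA and 0.0387% in H2A.Z.1-KQ mice. The 2 were both Map3k15, higher in females by 0.77 (SE 0.34) in H2A.Z-KO mice, at an adjusted p of 0.82, and by 0.81 (SE 0.32) in H2A.Z.1-WT mice, at 0.58, the groups that hold 3 of the 4 females rich in Ttr.

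Further CA2 markers were examined as a list of 11 genes. The list was drawn up with earlier results of these data known, so it is not independent evidence of a direction, and its genes are given with their p over all genes tested. In H2A.Z-KO females 5 of them fell, Actn2, Avpr1b, Vit, Ptpn5 and Syce2, and 2 rose, Fgf2 and Ccdc3. Over all genes 16.5% were lower and 18.1% higher in this comparison. In H2A.Z-KO males 6 fell, Cacng5, Ptpn5, Avpr1b, Vit, Actn2 and Homer3, and 1 rose, Fgf2, where over all genes 14.4% were lower and 17.2% higher. Homer3 was named after its values were seen. The median log2 fold change of the 11 was -0.60 and -0.68, against 0.003 and 0.03 over all genes tested. Scaled to the pan-neuronal genes, 2 fell in females, Avpr1b and Actn2, and 3 in males, Avpr1b, Actn2 and Vit, while 3 and 2 rose, and the median was 0.18 in females and -0.09 in males. No gene of the list differed between the sexes in this response (edgeR interaction, smallest adjusted p 0.93, with no unadjusted p under 0.05).

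Avpr1b, the vasopressin receptor through which CA2 acts in social behaviour, fell the most of the 11. Its level was 1.01 ± 0.192 CPM in Myc females and 1.38 ± 0.455 in Myc males, with 20 to 60 fragments a mouse, and 0.0894 ± 0.0347 and 0.175 ± 0.0615 CPM in H2A.Z-KO mice, with 2 to 11 fragments. The fitted difference was -3.48 (SE 0.63) in females, at an adjusted p of 4.1e-05, and -2.93 (SE 0.55) in males, at 6.7e-05. Every Cre mouse, at 0.539 CPM or less, was below every Myc mouse, at 0.791 CPM or more. It was lower than Myc in all 6 replacement comparisons, with differences of -2.82 (WT), -2.07 (KA) and -2.71 (KQ) in females and adjusted p from 0.0007 to 0.0083 in males, and no comparison with H2A.Z-KO passed.

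Vit, a protein of the extracellular matrix, and Cacng5, an auxiliary subunit of AMPA receptors, also stayed low. Vit was at 4.99 ± 2.00 and 4.08 ± 0.865 CPM in Myc females and males, and H2A.Z-KO mice had 1.71 ± 1.01 and 1.55 ± 0.959 CPM. The difference was -1.54 (SE 0.45) in females, at an adjusted p of 0.0075, and -1.43 (SE 0.43) in males, at 0.0096. It was lower than Myc in 4 of the 6 replacement comparisons. Cacng5 differed from Myc in H2A.Z-KO males by -1.16 (SE 0.25, adjusted p = 0.00051) and in females by -0.54 (SE 0.27, adjusted p = 0.12), and was lower than Myc in the WT and KQ males.

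Ptpn5 and Actn2 differed between H2A.Z-KO and replacement mice. Ptpn5, the striatal-enriched phosphatase STEP that dephosphorylates synaptic proteins, was at 92.0 ± 6.71 and 97.8 ± 6.90 CPM in Myc mice, at 60.8 ± 11.2 and 65.9 ± 13.4 CPM after deletion and 86.1 to 98.7 CPM in the replacement groups. It fell in H2A.Z-KO mice (-0.60 in females and -0.57 in males, at adjusted p of 0.002 and 0.0017), but not when scaled to the pan-neuronal genes (0.18 and -0.02, adjusted p 0.39 and 0.92). It was higher than H2A.Z-KO in all 6 replacement comparisons, and passed in none against Myc. Actn2, an actinin that anchors actin at synapses, was at 12.1 ± 2.41 and 10.2 ± 1.28 CPM in Myc mice, at 3.96 ± 0.756 and 4.64 ± 1.07 CPM after deletion, and at 6.56 to 7.21 CPM with replacement. It fell by 1.62 on the log2 scale in H2A.Z-KO females and by 1.14 in males (adjusted p = 2e-07 and 1.5e-05), and by 0.83 and 0.58 with pan-neuronal scaling. It was higher than H2A.Z-KO in all 6 replacement comparisons and below Myc in the 3 female ones.

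Fgf2, a fibroblast growth factor that astrocytes also make, moved opposite to most of the list. It rose in H2A.Z-KO mice by 0.85 (SE 0.24) in females, at an adjusted p of 0.0055, and by 0.62 (SE 0.22) in males, at 0.027, and was lower than H2A.Z-KO in all 6 replacement comparisons. Of 7 astrocyte markers, 5 rose in H2A.Z-KO mice of each sex, where 18.1% of all genes rose in females and 17.2% in males. The summed level of the 7 was 4212 to 5049 CPM in Myc females and 7001 to 12532 CPM in H2A.Z-KO females. The part of astrocytes in the Fgf2 level was not tested. Ccdc3, a secreted protein, rose in H2A.Z-KO females (1.59, SE 0.55, adjusted p = 0.025), where its SD was 34.7 around 45.8 CPM.

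Counted over the 6 replacement comparisons with Myc, the 11 genes had 17 lower calls. In females 5 of 11 were lower in H2A.Z.1-WT (3.52% of all genes), 3 in H2A.Z.1-KA (3.23%) and 3 in H2A.Z.1-KQ mice (2.08%). In males 2 were lower in H2A.Z.1-WT (1.68%), 2 in H2A.Z.1-KA (2.74%) and 2 in H2A.Z.1-KQ mice (1.65%). Avpr1b made 6 of these calls, Vit 4, Actn2 3, Cacng5 2, and Syce2 and Homer3 1 each. Without Myc female 31 the 17 calls became 10. Against H2A.Z-KO, 2 of 11 were higher in each of the 6 comparisons, and these were always Ptpn5 and Actn2. Over all genes 5.36%, 5.63% and 5.36% were higher in WT, KA and KQ females, and 7.44%, 5.86% and 8.72% in the males. These comparisons share Myc or H2A.Z-KO mice with each other. When scaled to the pan-neuronal genes, no gene of the list was higher in replacement than in H2A.Z-KO mice.

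**Figure D5:**
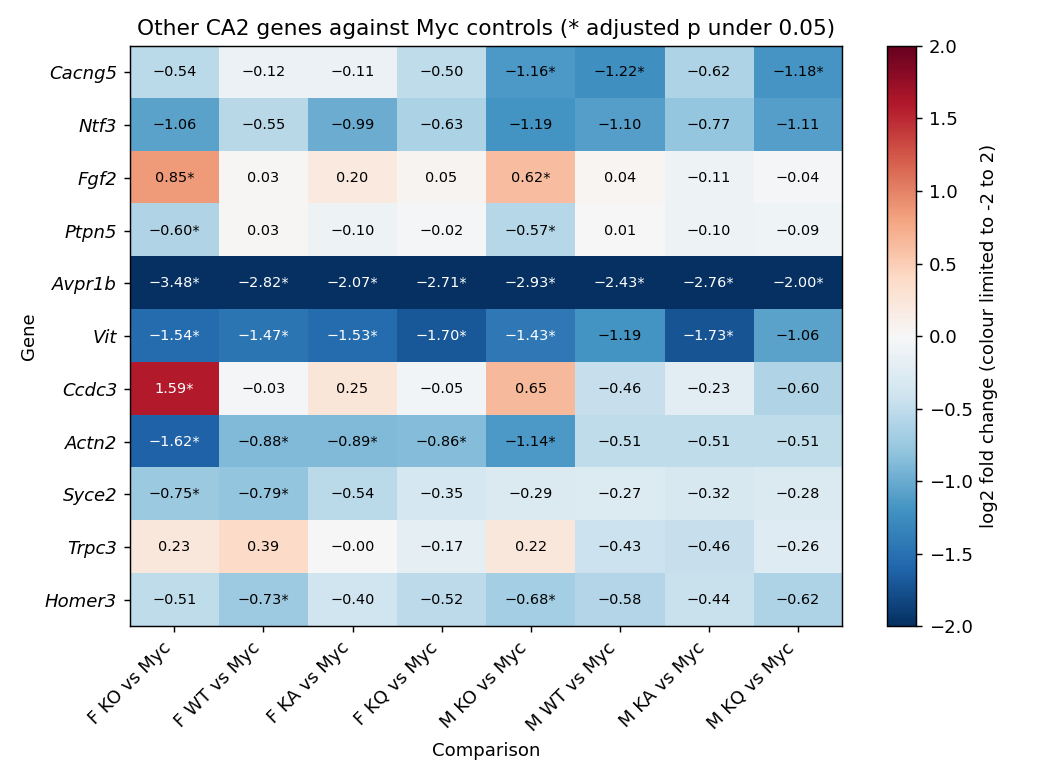
Log2 fold change of the 11 other CA2 genes (rows) in each Cre group against Myc mice of the same sex (columns), with the value in each cell, an asterisk at an adjusted p under 0.05 and colour from blue (lower) to red (higher). Avpr1b is lower in all 8 columns, and Ptpn5 is lower in the KO columns alone.

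Receptors and regulators that CA2 shares with other neurons fell in H2A.Z-KO mice as shares of all RNA, 8 of 10 in females and 7 in males, with medians of -0.59 and -0.40, where over all genes 16.5% and 14.4% fell. Scaled to the pan-neuronal genes none fell (edgeR), 4 rose in females and 1 in males, and the medians were 0.16 and 0.15. Erbb4, the neuregulin receptor, differed by -0.81 and -0.59, Cnr1, the cannabinoid receptor, by -0.91 and -0.69, Adora1, the adenosine receptor, by -0.48 and -0.39, and Ntrk3, the neurotrophin-3 receptor, by -0.45 and -0.40. Nr3c2, the mineralocorticoid receptor that marks CA2 among pyramidal neurons and was named after its values were seen, differed by -0.52 (adjusted p = 0.028) and -0.59 (adjusted p = 0.009). Nr3c1, the glucocorticoid receptor, differed by 0.16 and 0.06 (adjusted p = 0.17 and 0.63). In the replacement groups 4, 1 and 1 of the 10 were below Myc in WT, KA and KQ females, and 1, 2 and 0 in the males, against 1.65% to 3.52% of all genes.

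Of 9 genes of the perineuronal net 1 fell and 2 rose in each sex, which is close to the shares over all genes (16.5% lower and 18.1% higher in females, 14.4% and 17.2% in males). Hapln4, a link protein, fell in H2A.Z-KO females (-0.83, SE 0.21, adjusted p = 0.0024), with -0.48 (adjusted p = 0.062) in males. Acan, the core proteoglycan aggrecan, fell in males (-1.02, SE 0.25, adjusted p = 0.0017), with -0.27 (adjusted p = 0.47) in females. Vcan and Ptprz1, which are also glial, rose in both sexes, by 0.51 and 0.44 and by 0.36 and 0.46. The other 5 genes passed in neither sex. With pan-neuronal scaling no gene of this list fell (edgeR), 6 rose in females and 5 in males, and Acan was at 0.62 in females and -0.47 in males.

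The nearest relatives of the 5 genes did not move with them as a rule. Amigo1, the paralogue of Amigo2, fell (-0.58 in females and -0.46 in males, at adjusted p of 2.9e-05 and 2e-04), and Rgs10, a small regulator of G protein signalling that microglia also express, rose by 1.04 and 1.05. Amigo3, Rgs12, Necab1, Necab3, Pcp4l1, Map3k5 and Map3k6 passed in neither sex. Among 12 genes whose products bind or signal with the 5, 10 fell and 1, the G protein subunit Gnai3, rose in each sex. Over all genes 16.5% fell and 18.1% rose in females, and 14.4% and 17.2% in males. The 10 include Gnai1, a G protein subunit bound by RGS14 (-0.51 and -0.35), and Camk4, a calcium-dependent kinase (-0.86 and -0.68). These falls also depended on the scale: against the pan-neuronal genes 7 of the 12 rose in females, and 1 fell and 2 rose in males, and Amigo1 was at 0.21 and 0.09.

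Markers of the neighbouring fields CA1 and CA3 were lower as well as shares of all RNA. Over all genes 16.5% fell and 18.1% rose in H2A.Z-KO females, and 14.4% fell and 17.2% rose in males. In H2A.Z-KO mice 4 of 11 CA1 genes fell in each sex, Fibcd1, Gpr161, Mpped1 and Ccn3 in females and Fibcd1, Gpr161, Lefty1 and Ndst4 in males, and 1, Dcn, rose in males. Gpr161 was at -0.78 and -0.73 and Lefty1 at -0.97 in males. Of 12 CA3 genes 6 fell and 1, Coch, rose in each sex, with Cdh24 at -1.14 and -1.21 and Elavl2 at -0.99 and -0.79. Of 12 dentate gyrus genes 1 fell, Sema5b, and 3 rose, Igfbp5, Glis3 and Pdzd2, in females, and 2 fell, Sema5b and Calb1, and 2 rose, Igfbp5 and Glis3, in males. The dentate gyrus counts are near the shares over all genes. Igfbp5, a binding protein of insulin-like growth factors, was higher by 1.70 and 1.45. Fibcd1, Mpped1, Ccn3, Ndst4, Dcn, Coch, Iyd, Sema5b, Glis3 and Calb1 were named after their values were seen. The medians were -0.67 and -0.44 for CA1, -0.74 and -0.52 for CA3 and 0.07 and -0.04 for the dentate gyrus, so that the list of 11 CA2 genes, at -0.60 and -0.68, lay near CA1 and CA3. Scaled to the pan-neuronal genes the medians were 0.13 and 0.10 for CA1, 0.02 and -0.01 for CA3 and 0.80 and 0.52 for the dentate gyrus, and of the falls 2 CA3 genes in males, Cdh24 and Iyd, remained past the threshold.

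Other cell types were checked in the same comparison. Of 9 interneuron genes 7 fell in each sex (1 with pan-neuronal scaling), of 8 monocyte and macrophage genes 7 and 8 rose, of 7 oligodendrocyte genes 4 and 2 rose, and of 6 endothelial genes 6 and 4 rose. Of 9 thalamus genes none fell and 5 rose in females and 1 in males, of 9 striatum genes 2 fell and 2 rose in females and 3 fell and 1 rose in males, and of 8 cortex genes 3 fell and 2 rose in females and 1 fell and 2 rose in males. Several of these counts are at or near the shares over all genes. Those were 16.5% lower and 18.1% higher in females, and 14.4% and 17.2% in males. In H2A.Z-KO and in replacement mice the microglial sum, at 1727 to 3500 and 706 to 1809 CPM, was above that of Myc mice at 384 to 627 CPM, and the part of these cells in the levels of the 5 genes was not tested.

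The targeted genes gave no difference past the test. In H2A.Z-KO mice H2az1, which encodes H2A.Z.1, was -0.06 from Myc in females and -0.05 in males on the log2 scale (edgeR, adjusted p 0.83 and 0.84). H2az2 was at 0.28 and 0.14 (adjusted p 0.061 and 0.35). Against H2A.Z-KO mice, H2az1 was at 0.24 to 0.44 in the 6 replacement comparisons, with an unadjusted p under 0.05 in 5 of them and adjusted p from 0.077 to 0.28. The paper's own mRNA measurements differ from these counts. It reports H2az1 (there H2afz) lower in H2A.Z-KO mice and higher than Myc with each replacement. It also reports H2az2 (there H2afv) lower with Cre whether or not H2A.Z.1 was replaced. The counts cover whole genes in all cells of the tissue, so a deletion limited to part of a gene in transduced neurons need not show in them, and the groups are named by their labels throughout.

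The patterns of the 5 genes over the 10 groups were compared with those of 15936 genes with a mean of at least 1 CPM, by Pearson's r over the group means of log2 CPM, as a description. The genes most like Amigo2 were Sst, the somatostatin of interneurons (r = 0.989), Dnajc12 (0.979) and Rasl11b (0.977), and 166 genes reached 0.9. Sst was at 228 and 187 CPM in Myc females and males, 93.7 and 84.8 in H2A.Z-KO, and 69.0 to 79.2 in the replacement groups, which as for Amigo2 were the lowest. Those most like Rgs14 were Vps72, a subunit of the complexes that deposit H2A.Z (r = 0.993), 6330420H09Rik (0.989) and Mettl22 (0.987), and 540 genes reached 0.9. Vps72 moved little, from 25.4 and 25.8 CPM in the controls to 22.2 and 22.3 CPM after deletion.

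Necab2 was most like Vstm5 (0.990), Triqk (0.989) and Gabra3, a GABA-A receptor subunit (0.988), with 832 genes at 0.9 or more. Pcp4 was most like Pitpnm2 (0.940), Zfp651 (0.932) and Bmp1 (0.931), and Map3k15 most like Capsl (0.962), Smtnl2 (0.954) and Mapk7 (0.951), with 11 and 16 genes at 0.9. Among the 5 themselves, r over the 10 group means was 0.91 for Rgs14 and Necab2, 0.86 for Amigo2 and Rgs14 and 0.80 for Amigo2 and Necab2, and -0.03 for Amigo2 and Pcp4. After each group's mean was taken off, r over the 40 mice was 0.38, 0.48, 0.52 and 0.18 for the same pairs, and -0.41 for Rgs14 and Map3k15. Both genes of a pair were read in the same libraries and share their depth and tissue makeup.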

How the data were processed

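Hippocampal RNA of 40 mice was sequenced as paired reads. The authors checked reads with FastQC 0.11.9, aligned them to GRCm39 with Rsubread and counted genes with featureCounts; strand use is not given in the sources used here. The deposited raw count per gene was analysed, and the deposited DESeq2-normalized table was not used. Genes whose counts summed to 20 or more (28449 of 40853) were fitted in edgeR 4.0.16 (R 4.3.3) with TMM scaling, 10 group means and the robust quasi-likelihood test; an adjusted p (Benjamini-Hochberg) under 0.05 was called at any fold change. Alternatives included DESeq2 1.42.0; the study used DESeq2 in an earlier version. The 5 genes and all lists were chosen with earlier results of these data known. Differences of the 5 genes from Myc or H2A.Z-KO mice of the same sex therefore carry no test, while females and males were tested within each group. Named were up to 4 called genes per list and direction by smallest p (mean of at least 1 CPM; 2 for field and pan-neuronal lists), those that a count of 5 or fewer needs, and the 3 most alike genes per member. No 2 mice of a group agreed within sampling noise (chi-square per degree of freedom 7.52 to 258). The highest values, 258 and 184, were both pairs with Myc female 32, and the next highest was 97.7. P-values weigh a group difference against the spread between mice, estimated over the 10 groups. Intervals are at 95%. Log2 CPM used a prior count of 2. Promoters are from RefSeq (GRCm38.p6; 3 of 5 genes matched) and loci from GENCODE (GRCm39). The values of 2 genes that the naming rule selects are not reported here.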

Additional observations from a re-analysis of the deposited data

Results flagged for a closer look

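Of 40 sets of mice checked (5 genes in the 8 groups of 4 or 5 mice), 2 held a mouse that stood apart from the rest by Dixon's criterion, which chance alone meets in about 1 of 20 sets. Both concern Pcp4. Among the 4 Myc males, mouse 22 was at 138.8 CPM and the next at 92.8 CPM. This mouse was also the highest of its group for Amigo2 (33.4 CPM) and Rgs14 (131.6 CPM). Among the 5 H2A.Z.1-WT males, mouse 10 was at 74.9 CPM, and the others lay between 80.5 and 82.6 CPM, so that the gap is small in size.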

How the results depend on the processing

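No test of the 5 genes between replacement forms or between the sexes passed under any alternative, with each mouse left out in turn as well. Scaling to the pan-neuronal genes changed the counts over the 11 other CA2 genes most: lower in H2A.Z-KO 2 (females) and 3 (males) in place of 5 and 6, higher in males 2, lower in replacement against Myc 11 in place of 17, and higher in replacement against H2A.Z-KO 0 in place of 12. With only the groups of the comparison fitted, 1 rose in females in place of 2. Leaving out 1 mouse gave 4 to 6 lower and 0 to 2 higher in females, 5 to 6 lower and 0 to 1 higher in males, 10 to 19 lower against Myc and 9 to 12 higher against H2A.Z-KO. The female higher count was 1 without Myc mouse 11 or 32 or H2A.Z-KO mouse 13 or 14 and 0 without Myc mouse 31; the male one was 0 without H2A.Z-KO mouse 4 or Myc mouse 22.

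Some differences between replacement forms that passed no test changed sign. Without the mice above 1000 CPM of Ttr, an alternative chosen after seeing the data, females had: Amigo2 KA-KQ -0.067 and KQ-WT 0.27, Rgs14 KA-WT -0.068, Necab2 KA-WT 0.063 and KQ-WT 0.30, and Map3k15 KA-KQ 0.16, KA-WT 0.32 and KQ-WT 0.16. With pan-neuronal scaling Rgs14 KA-WT was -0.015 in females. Necab2 KA-KQ in females was 0.011 with DESeq2 size factors, 0.0085 with pan-neuronal scaling, 0.0069 with filterByExpr, 0.0042 with no filter, 0.052 with number range as a term, 0.0094 with only the groups compared and 0.0088 with DESeq2. Map3k15 KA-KQ in males was -0.0022 with DESeq2 size factors, -0.0015 with number range and -0.0022 with DESeq2. Leaving out 1 mouse moved, in females, Amigo2 KA-KQ from -0.098 to 0.27, KA-WT from -0.12 to 0.24 and KQ-WT from -0.16 to 0.19; Rgs14 KA-KQ from -0.31 to 0.085, KA-WT from -0.064 to 0.11 and KQ-WT from -0.063 to 0.33; Necab2 KA-KQ from -0.27 to 0.24, KA-WT from -0.30 to 0.12 and KQ-WT from -0.27 to 0.22; Pcp4 KA-WT from -0.14 to 0.017; Map3k15 KA-KQ from -0.42 to 0.15, KA-WT from -0.49 to 0.32 and KQ-WT from -0.44 to 0.50. In males it moved Amigo2 KA-WT from -0.27 to 0.0013 and Map3k15 KA-KQ from -0.13 to 0.22. The cause of these changes was not tested. No paired analysis was possible because each mouse number occurs once. Map3k15 and Avpr1b rest on few fragments, which limits their precision.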
